A study of Mus musculus with 2 samples.

Results

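Mir134, Mir329, Mir381 and Mir485 are 4 microRNA genes of the Mir379 to Mir410 cluster. This long row of hairpins lies in the imprinted Dlk1-Dio3 region and is known to be expressed from the maternal copy. The 4 genes were chosen by name, as the cluster members known for activity-regulated and synaptic roles. All 4 were found among the 2202 microRNA genes of the deposited counts. The counts come from microRNA-seq of total RNA from hippocampus of male B6CASTF1/J mice aged 36 days, with 2 libraries of 1 group labelled biological replicates 1 and 2. B6CASTF1/J mice are hybrids with a C57BL/6J and a CAST/EiJ parent, no treatment is labelled, and both libraries carry the same donor identifier but come from separately labelled tissue samples. There is no stimulated, silenced or trained group, so the data hold the basal counts of these genes and the spread between the 2 libraries, and no response to activity.

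A microRNA is cut from a hairpin into a short mature strand that guides the Argonaute protein to messenger RNAs, mostly through pairing of bases 2 to 8, the seed. The cluster is known to be transcribed as a long precursor in neurons, with transcription raised by the activity-dependent factor Mef2. miR-134 is known as a dendritic microRNA that represses the actin regulator Limk1 and the RNA-binding protein Pum2, and it limits spine size. miR-329 and miR-381 are known to be needed beside miR-134 for activity-dependent growth of dendrites. miR-485 is known for control of the synaptic vesicle protein SV2A and of spine density during homeostatic adaptation.

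The mature arms are shown because the seeds set which messages each gene can address and which other microRNAs it could be grouped with. RefSeq (GRCm38.p6, the build of mm10) gave all 4 hairpins and 7 mature arms, written 5′ to 3′ with the seed in capitals:
miR-134-5p: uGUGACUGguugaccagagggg
miR-134-3p: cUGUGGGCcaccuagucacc
miR-329-5p: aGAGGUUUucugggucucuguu
miR-329-3p: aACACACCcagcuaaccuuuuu
miR-381-5p: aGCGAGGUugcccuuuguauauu
miR-381-3p: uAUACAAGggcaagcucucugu
miR-485-3p: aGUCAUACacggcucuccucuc

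No seed was shared between the 4 genes among the 7 arms shown. The source gave no 5p arm for Mir485, so the seed of miR-485-5p was neither compared nor searched for. Among the 1738 mature arms in the table, the seed of miR-329-3p recurred in 1 other, miR-362-3p, and that of miR-134-3p in 1 other, miR-3620-5p. The remaining 5 arms had a seed of their own. Mir362 (chromosome X) had 52 counts in replicate 1 and 97 in replicate 2, so that Mir329 had 22.1 times its counts (95% exact binomial interval 16.7 to 29.7) and 13.3 times (10.8 to 16.5). Mir3620 had 0 counts in both libraries, which is compatible with as many as 3 counts at this depth. In CPM (counts per 1000000 counts on microRNA genes) that limit is 0.681 in replicate 1 and 0.568 in replicate 2. Between the 2 genes whose 3p arms carry the ACACACC seed, most counts thus fell on Mir329. The counts are per gene and do not separate the arms.

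Some cluster microRNAs come within 1 seed base of these genes. Positions are counted from 1 at the 5′ end of the mature arm, and the base of the arm of the 4 genes is given first. The pairs shown are those between 3p arms:
miR-381-3p: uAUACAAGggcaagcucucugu
miR-300-3p: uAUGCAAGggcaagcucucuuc
miR-485-3p: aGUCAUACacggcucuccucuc
miR-154-3p: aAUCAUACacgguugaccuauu
The seeds of miR-381-3p and miR-300-3p differ by A4G, and those of miR-485-3p and miR-154-3p by G2A. Beyond these, miR-329-5p differs from miR-377-5p by U8G and miR-381-5p from miR-679-3p by G4A. An adenosine in the seed of miR-381-3p is known to be edited to inosine, which is read as G, in brain. How reads with such a change were placed was not tested. The longest stretch that the Mir381 hairpin shared with another annotated microRNA hairpin was 16 bases, with Mir300. The hairpins of Mir134, Mir329 and Mir485 shared at most 13 bases with any other. None of the 4 shared a stretch of 20 bases with another annotated gene, whereas 5 of the 39 listed cluster genes did. Reads that match several places enter no gene's count, and the genome outside these genes was not searched for copies.

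The 3′ UTRs of Pum2 and Limk1, known as targets of miR-134, were searched for sequence matches to the seeds. In the longest annotated 3′ UTR of Pum2, of 2861 bases, a match was taken as the complement of bases 2 to 8, or of bases 2 to 7 followed by A, on the transcript's strand only. There were 2 separate matches for miR-134-5p (CAGTCAC or AGTCACA), 4 for miR-381-3p (CTTGTAT or TTGTATA), 1 for miR-329-3p (GGTGTGT or GTGTGTA) and 0 for miR-485-3p (GTATGAC or TATGACA). A site for each of 3 genes, with the match in capitals and in GENCODE M21 coordinates on mm10, all on the plus strand of chromosome 12, reads as follows:
miR-134-5p, chr12:8751833-8751862: tttcaccattctCAGTCACactgcttcatc
miR-329-3p, chr12:8750738-8750767: taaacgcattgtGTGTGTAggggtagatgt
miR-381-3p, chr12:8750405-8750434: caatgtacagaaTTGTATAtacttataatt
Matches of either form occurred in the longest 3′ UTR of 17.0% of 21020 genes for miR-134-5p, 23.8% for miR-329-3p and 21.4% for miR-381-3p, at a median UTR length of 961 bases. The Pum2 UTR is longer than that, and its matches are letters in a sequence and not measured sites. In the 1184-base UTR of Limk1 there were 0 matches of either form for miR-134-5p and 1 for miR-134-3p (GCCCACA or CCCACAA), which 16.6% of genes hold. In Pum2, miR-134-3p, miR-329-5p and miR-381-5p also had 0 matches, and in Limk1 so did every arm shown for Mir329, Mir381 and Mir485. Shorter or other kinds of match were not searched for, so the 0 for miR-134-5p does not bear on whether miR-134 represses Limk1.

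The 4 genes lie apart within the cluster, all on the plus strand of chromosome 12. In order they are Mir329 (ENSMUSG00000065577.1, chr12:109713481-109713577), Mir381 (ENSMUSG00000098838.2, chr12:109726822-109726896), Mir134 (ENSMUSG00000065426.3, chr12:109734139-109734209) and Mir485 (ENSMUSG00000070128.3, chr12:109734902-109734974). Counted from the start of Mir379 they begin at 4.42, 17.8, 25.1 and 25.8 kb. Mir134 and Mir485 have only Mir668 between them among the annotated microRNA genes and lie within the long non-coding gene Mirg, where both overlapped an exon in each of the 3 Mirg transcripts that span them. Mir329 and Mir381 lie upstream of the annotated Mirg and within no other gene on their strand. The hairpins are 97, 75, 71 and 73 bases long in this order, and that of Mir134 is the richest in G and C of the 4, at 60.6% against 42.3% for Mir329, 40.0% for Mir381 and 47.9% for Mir485. The median over the cluster was 43.6%.

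The own-strand counts over all microRNA genes came to 4404040 in replicate 1 and 5279877 in replicate 2, from 12462653 and 15241166 reads. Mir127 and Mir132, which are abundant in neurons, were among the highest of the marker lists at 56482 ± 1909 and 20543 ± 4655 CPM (SD over n = 2 libraries, here and for later levels with ±), while the 3 Mir124 genes, also neuronal markers, had 12 and 9 counts together. Each Mir124 gene shares 20 bases with 2 others, which makes these counts uncertain. The neuronal list of 11 genes summed to 91341 CPM in replicate 1 and 96957 in replicate 2, of which Mir127 alone gave 55133 and 57832. The exact binomial test described below covered 9 of these genes. It called 7 as higher in replicate 2 and 1, Mir132, as lower, and left 1 uncalled. Over all tested genes, which are not matched in level, it called 32.5% as higher and 23.2% as lower. In the same order of libraries, the 3 oligodendrocyte genes summed to 5819 and 5662 CPM and the 3 vessel wall genes to 16250 and 43835. The 4 leukocyte and microglia genes summed to 926 and 1124, the 5 choroid plexus genes to 776 and 1414 and the 3 red blood cell genes to 66.8 and 113. The difference in vessel wall counts came mostly from Mir126a, with 42849 and 200301 counts. The choroid plexus sums were mostly Mir204, at 683 and 1206 CPM. All 5 genes of that list were called as higher in replicate 2, with 35 and 345 counts for Mir200b. In the red blood cell list 2 genes were called as higher and 1 was uncalled, with 38 and 201 counts for Mir144 and 101 and 94 for Mir486. In tissue, fewer cells of a type and less RNA per cell cannot be told apart, and the part of cell makeup in the library differences of the 4 genes was not tested.

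Mir485 was the most abundant of the 4 genes and Mir329 the least, in the same order in both libraries. Mir485 had 8763 counts in replicate 1 and 14316 in replicate 2, or 1990 CPM (95% exact Poisson interval 1948 to 2032) and 2711 CPM (2667 to 2756). Its mean was 2351 ± 510 CPM, rank 60 of all 2202 genes and rank 7 of the 39 cluster genes in each library. The 2 libraries do not overlap in their counting intervals, and replicate 2 is the higher.

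Mir381 followed with 2708 and 6046 counts, or 615 CPM (592 to 638) in replicate 1 and 1145 CPM (1116 to 1174) in replicate 2. Its mean of 880 ± 375 CPM rests on unequal libraries, with replicate 2 again the higher. It ranked 15 of the 39 cluster genes in both libraries and 103 of all genes. Mir134 had 2308 and 1806 counts, which are 524 CPM (503 to 546) and 342 CPM (326 to 358), with a mean of 433 ± 129 CPM. Here replicate 1 is the higher. Mir134 ranked 17 in the cluster in replicate 1 and 18 in replicate 2, and 137 over all genes by its mean.

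Mir329 was the steadiest of the 4 in level. It had 1148 counts in replicate 1 and 1292 in replicate 2, or 261 CPM (246 to 276) and 245 CPM (232 to 258), and these intervals overlap. Its mean was 253 ± 11.3 CPM, rank 20 of the cluster genes in replicate 1, 21 in replicate 2 and 157 of all genes. All 4 genes stood above the median mean level of the 504 genes with 10 or more counts in total, which was 36.4 CPM. Against the median of the 36 cluster genes with as many counts, 348 CPM, 3 stood above and Mir329 below. Over all 39 listed cluster genes the median was 253 CPM, which is the level of Mir329 itself. Both cluster medians include the 4 genes.

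**Figure D1:**
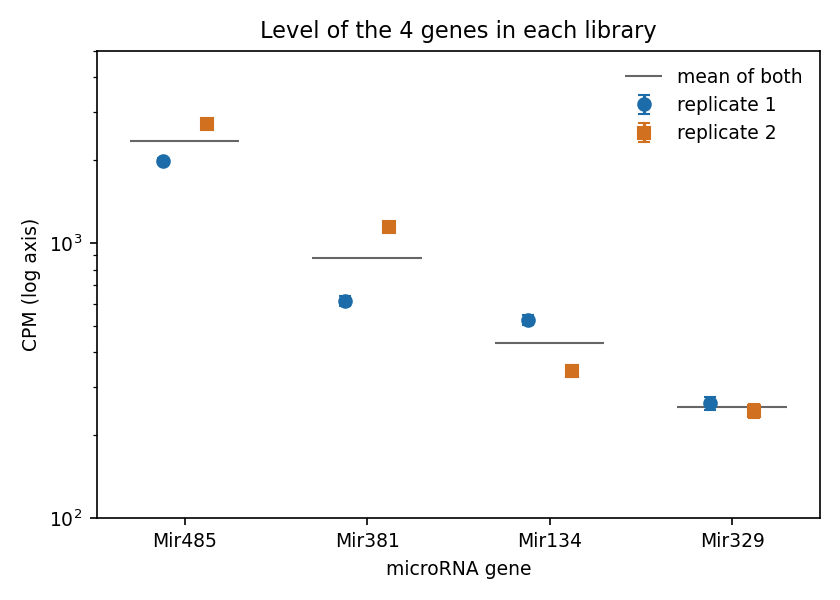
Level of Mir485, Mir381, Mir134 and Mir329 in CPM on a log axis, in replicate 1 (circles) and replicate 2 (squares), with 95% exact Poisson intervals and a line at the mean of both. The 2 libraries lie apart for Mir485 (1990 and 2711 CPM), Mir381 (615 and 1145) and Mir134 (524 and 342) and close together for Mir329 (261 and 245).

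Levels of different genes are compared here as counts, since reads come from the mature arms and not from the whole hairpin. Per base of annotated hairpin the order of the 4 genes was the same in both libraries, with 27.3 and 37.1 CPM per base for Mir485, 8.20 and 15.3 for Mir381, 7.38 and 4.82 for Mir134 and 2.69 and 2.52 for Mir329. Differences in capture between sequences were not measured, so the order is of counts and need not be that of the molecules in the tissue.

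As a group the 4 genes held a small part of the cluster. Their share of its counts was 5.04% in replicate 1, with a 95% Wilson interval of 4.97 to 5.12, and 6.57% in replicate 2, with 6.49 to 6.65. The mean was 5.81% ± 1.08 (SD, n = 2). Mir485 alone gave 2.96% and 4.01%, Mir381 0.915% and 1.69%, Mir134 0.780% and 0.506%, and Mir329 0.388% and 0.362%. The 39 listed genes together held 6.72% and 6.76% of all microRNA counts. The cluster's total was thus nearly level between the libraries, at 67196 and 67621 CPM, while the shares of Mir381, Mir485 and Mir134 within it were not. The most abundant cluster genes were Mir487b at 13968 ± 1882 CPM, Mir411 at 10668 ± 160 CPM and Mir382 at 8728 ± 2879 CPM. A stretch of 20 bases in Mir487b and in Mir411 recurs in another gene, which makes the counts of both uncertain.

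**Figure D2:**
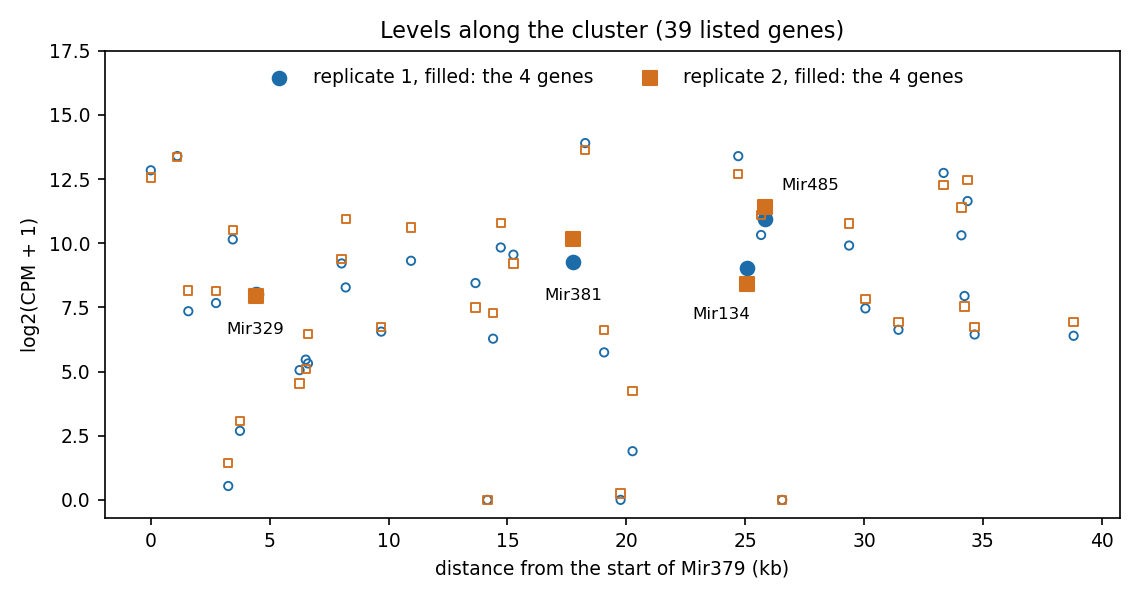
Level of the 39 listed cluster genes as log2(CPM + 1) against their distance from the start of Mir379 in kb, in replicate 1 (circles) and replicate 2 (squares), with the 4 genes filled. Close neighbours differ widely, and the filled points lie between the highest genes, such as Mir487b at 13968 CPM, and those at or near 0.

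Neighbours on the same strand differed from the 4 genes in different ways. Mir382, which ends 292 bases before Mir134, had 47407 counts in replicate 1 and 35335 in replicate 2. That is 20.5 times the counts of Mir134 (95% exact binomial interval 19.7 to 21.4) in replicate 1 and 19.6 times (18.7 to 20.5) in replicate 2. The ratio in replicate 2 was 0.953 times that in replicate 1, with an exact 95% interval of 0.894 to 1.02, which includes 1. Both genes were lower in replicate 2. Mir668, 522 bases after Mir134, went the other way, with 2.44 times (2.32 to 2.56) the counts of Mir134 in replicate 1 and 6.36 times (6.05 to 6.68) in replicate 2.

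Mir668 lies 104 bases before Mir485 and stood nearer to it. It had 5631 and 11482 counts, or 0.643 times (0.621 to 0.665) and 0.802 times (0.783 to 0.822) those of Mir485, and both genes were higher in replicate 2. Mir453, 644 bases after Mir485, had 0 counts in both libraries. Around Mir329, Mir758 ends 590 bases before it with 24 and 39 counts, and Mir494 starts 1740 bases after it with 142 and 117. Mir329 exceeded Mir494 by 8.08 times (6.79 to 9.69) in replicate 1 and 11.0 times (9.13 to 13.5) in replicate 2. The count of Mir758 is uncertain because 20 of its bases recur in another gene.

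Mir381 and Mir300, the cluster gene with the nearest hairpin in sequence and also the gene before it on the strand, changed places between the libraries. Mir300 had 3307 and 3121 counts against 2708 and 6046 for Mir381. Mir381 therefore had 0.819 times the counts of Mir300 (0.778 to 0.862) in replicate 1 and 1.94 times (1.85 to 2.02) in replicate 2. Mir487b, 436 bases after Mir381, had 24.9 times its counts in replicate 1 and 11.0 times in replicate 2. Mir154, whose 3p seed is near that of miR-485-3p, had 4233 and 9235 counts, so that Mir485 had 2.07 times (2.00 to 2.15) and 1.55 times (1.51 to 1.59) as many.

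The 6 ratios between the 4 genes all exceeded 1 in both libraries, but each changed in size. Mir485 over Mir381 was 3.24 (95% exact binomial interval 3.10 to 3.38) in replicate 1 and 2.37 (2.30 to 2.44) in replicate 2. Mir485 over Mir134 was 3.80 (3.63 to 3.98) and 7.93 (7.55 to 8.33). Mir485 over Mir329 was 7.63 (7.18 to 8.12) and 11.1 (10.5 to 11.7). In these 3 pairs Mir485 gained on Mir134 and Mir329 and lost on Mir381 from replicate 1 to replicate 2.

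Mir381 over Mir134 changed most among the 6. It was 1.17 (1.11 to 1.24) in replicate 1 and 3.35 (3.18 to 3.53) in replicate 2, and the change was 2.85 times, with an exact 95% interval of 2.64 to 3.08. Mir381 over Mir329 was 2.36 (2.20 to 2.53) and 4.68 (4.41 to 4.97). Mir134 over Mir329 was 2.01 (1.87 to 2.16) and 1.40 (1.30 to 1.50), a change of 0.695 times (0.628 to 0.770). For none of the 6 changes did the interval include 1. These ratios do not depend on library scaling. The intervals are for counting error alone and treat reads as independent. Reads amplified by PCR and not tagged by molecule are not independent, so the intervals may be too narrow even for counting error.

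**Figure D3:**
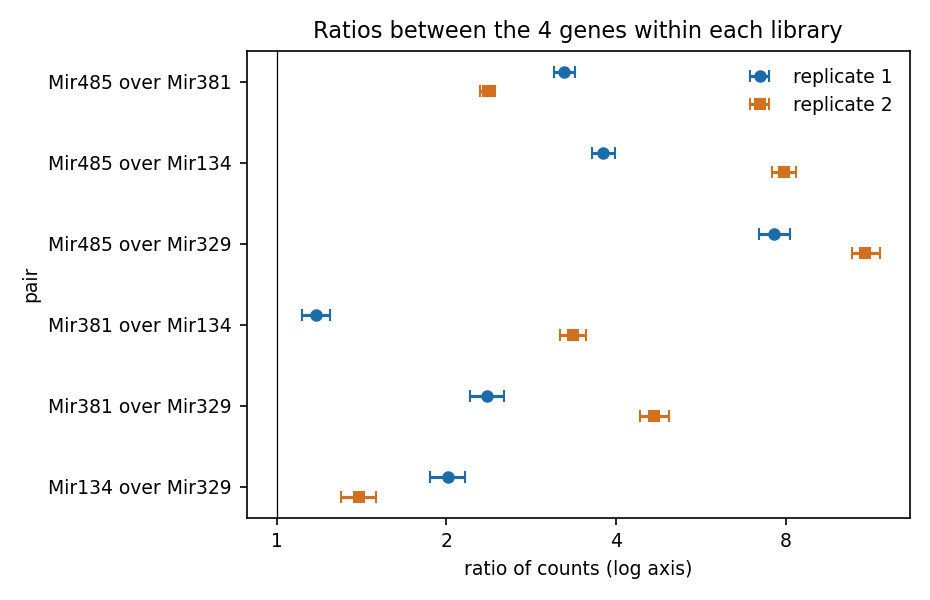
Ratio of counts for the 6 pairs of the 4 genes on a log axis, in replicate 1 (circles) and replicate 2 (squares), with 95% exact binomial intervals and a line at 1. All points lie right of 1, and the intervals of the 2 libraries do not overlap in any pair, with the widest gap for Mir381 over Mir134 (1.17 and 3.35).

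Between the libraries, 2 of the 4 genes were higher in replicate 2, 1 was lower and 1 did not pass the test. The test was the exact conditional binomial test on TMM-scaled counts with Benjamini-Hochberg adjustment over 504 genes, and it called 55.8% of all tested genes, 32.5% as higher and 23.2% as lower. With 4 genes, a count of 3 called is near that background. The test compares these 2 libraries for counting error and not a condition. Over all 504 genes 164 were higher and 117 lower, and with a minimum of 100 counts, which changes both the scaling and the genes tested, 122 of 313 were higher and 130 lower.

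Mir381 had a log2 ratio of replicate 2 over replicate 1 of 0.88, with 1 CPM added to each (adjusted p = 1.92e-162 in the exact binomial test). Mir485 had 0.43 (adjusted p = 5.76e-108, exact binomial) and Mir134 -0.63 (adjusted p = 4.96e-44, exact binomial). Mir329 had -0.11 (adjusted p = 0.106, exact binomial). With DESeq2 size factors Mir329 passed the test at -0.16 (adjusted p = 0.0128, exact binomial), and with the minimum of 100 counts at -0.24 (adjusted p = 5.57e-05, exact binomial). The directions of all 4 genes were the same under every scaling tried.

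The calls rest on counting error, and fewer held when a spread between libraries was allowed for. With a coefficient of variation of 0.1 added to the exact test, Mir381 (adjusted p = 0.000178) and Mir134 (adjusted p = 0.0110) passed and Mir485 did not (adjusted p = 0.104). The biological coefficient of variation from edgeR was 0.426 over the 504 genes. With that value in the exact test, a setting chosen after seeing the data, the adjusted p was 1 for all 4 genes, but it was estimated from the same 2 libraries. Only 3 of all 504 genes passed with it, so by this p the 4 are not set apart from most other genes. Of the 504, 21.8% differed more than Mir381, 33.1% more than Mir134, 52.0% more than Mir485 and 87.9% more than Mir329. By size in the main setting, the difference of Mir381 ranked 111 of the 504 tested genes, that of Mir134 168, that of Mir485 263 and that of Mir329 444. In the cluster they ranked 10, 17, 22 and 35 of the 36 genes tested, so Mir329 was among the cluster genes that differed least between the libraries. The order by size depends on the scaling. With the minimum of 100 counts Mir134 (-0.77) differed slightly more than Mir381 (0.74), and Mir485 (0.29) was near Mir329 (-0.24) in size. The largest difference in the cluster was that of Mir543, with 1362 and 10364 counts.

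**Figure D4:**
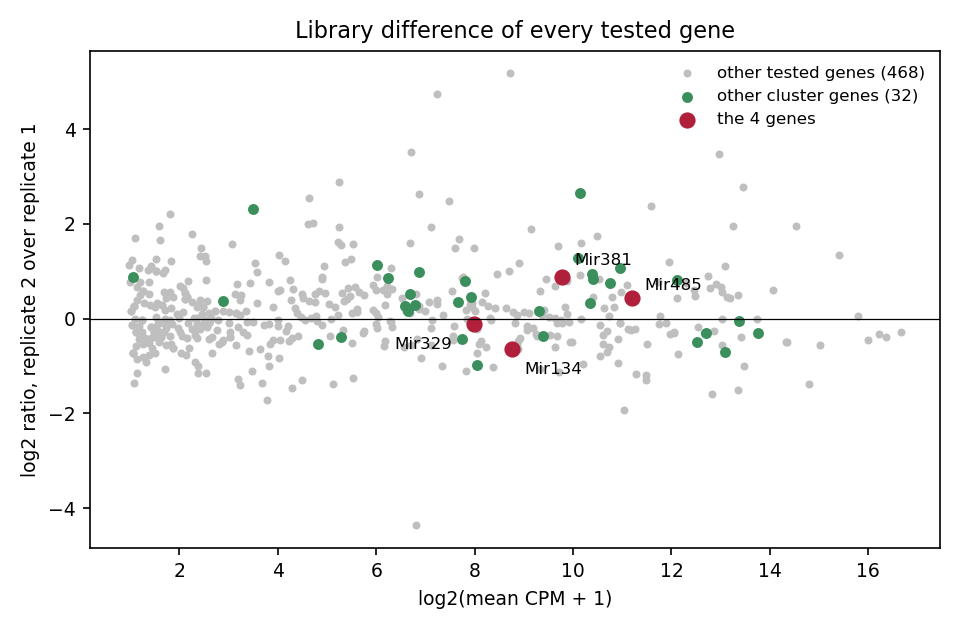
Log2 ratio of replicate 2 over replicate 1 against log2(mean CPM + 1) for the 504 tested genes, with the 4 genes in red, the 32 other cluster genes in green and the rest in grey. Mir381 (0.88) and Mir485 (0.43) lie above 0 and Mir134 (-0.63) and Mir329 (-0.11) below, all within the cloud of other genes.

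The rest of the cluster did not move as a unit either. In its 36 tested genes, the exact binomial test called 21 as higher in replicate 2 and 11 as lower and left 4 uncalled, where 32.5% of all tested genes were called as higher and 23.2% as lower. The median log2 ratio was 0.36 beside 0.05 over all tested genes. With the 100-count minimum 18 of 34 cluster genes were higher and 12 lower, beside 122 higher and 130 lower of 313 over all genes. Without the 4 genes and at the minimum of 10 counts, 19 cluster genes were higher, 10 lower and 3 uncalled. Among the 3 most abundant cluster genes, Mir487b had -0.29, Mir411 -0.05 and Mir382 -0.70, all lower in replicate 2.

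The cluster genes nearest to each of the 4 in both libraries were found by the distance between their log2(CPM + 1) values over the 2 libraries, as a description with no test. Mir329 lay nearest to Mir412 (distance 0.42, 1080 and 972 counts) and Mir380 (0.42, 892 and 1495 counts). Mir381 lay nearest to Mir667 (0.46, 2803 and 8276 counts) and Mir666 (0.77, 2609 and 3537 counts). Mir485 lay nearest to Mir409 (0.65, 5580 and 14180 counts) and to its neighbour Mir668 (0.71). Mir134 had no gene as close, with Mir300 at 0.94 and Mir666 at 0.98.

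Other microRNAs known for activity or synapse regulation give another setting for the levels. Of the 29 genes matched from that list, which holds none of the cluster, 27 were tested. The exact binomial test called 15 of them as higher in replicate 2 and 6 as lower and left 6 uncalled, beside the 32.5% and 23.2% of all tested genes. The median log2 ratio was 0.31, beside 0.05 over all tested genes. The tested genes of the list had a median mean level of 473 CPM, against 36.4 over all tested genes. With the 100-count minimum, 252 of 313 genes were called over all genes. The 32.5% and 23.2% are therefore not a background matched in level. The median mean level over the 29 was 461 CPM, so that Mir485 and Mir381 stood above it and Mir134 and Mir329 below. Its highest genes were Mir132, Mir22 at 9721 ± 8170 CPM and Mir128-1 at 8694 ± 4603 CPM, each above Mir485 in both libraries. Mir22 had 17368 counts in replicate 1 and 81827 in replicate 2, so its level rests on unequal libraries. In 20 genes of this list, Mir128-1 among them, a stretch of 20 bases recurs elsewhere, which makes their counts uncertain.

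Nearly all counts of the 4 genes lay on their own strand. On the opposite strand Mir134, Mir329 and Mir381 had 0 counts in both libraries and Mir485 had 0 and 1. The either-strand counts were therefore the same for 3 of the genes and 14317 against 14316 for Mir485 in replicate 2.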

How the data were processed

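Per the notes the authors deposited, the reads were placed on mm10 and counted over GENCODE M21 microRNA genes. Which aligner was used is not given in the sources used here. Raw counts per gene were deposited by the authors for either strand, the strand of the gene and the opposite one, a layout inferred from the numbers, and own-strand counts were used. Lines that name no gene held 64.7% of reads in replicate 1 and 65.4% in replicate 2, of which multimapping reads made up 40.3% and 46.5% of all reads, and were left out. All 2202 identifiers matched GENCODE M21. How CAST/EiJ variants affect read placement was not tested.

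CPM is each count over the library's own-strand total, times 1000000. The libraries were compared gene by gene in an exact conditional binomial test, two-sided (scipy 1.17.1), with library sizes scaled by TMM factors of 0.994 and 1.01 (edgeR 4.0.16 in R 4.3.3), for genes with 10 or more counts in total, with Benjamini-Hochberg adjustment at 0.05. With 1 group there is no contrast for edgeR's quasi-likelihood test. DESeq2 1.42.0 gave other size factors. Changes of ratios carry exact conditional intervals at 95%. The test of these changes with adjustment over the 6 pairs was planned. Its p-values are not given, because that adjustment covers only genes chosen by name with earlier results known. The intervals are not adjusted for the 6 pairs.

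The members and lists were chosen with earlier results of these data known. Named genes are the 4 genes, the 3 highest of the cluster and plasticity lists, the 2 nearest cluster genes, strand neighbours and genes sharing a seed or 20 bases. Mir543, Mir154, Mir127, Mir124 and Mir126a were named after their values were seen. The cluster list holds Mir3072, which lies past Mir410. Of the plasticity list 1 name, Mir92a-1, was not matched. Alternatives were other scalings, count minimums, either-strand counts, another pseudocount, added overdispersion, hairpin length, other cluster lists and each library alone.

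On simulated counts for replicate 2 against replicate 1, over 510 genes without overdispersion, the share of genes called was 63.3% at a 1.5-fold change, 70.0% at 2-fold, 91.8% at 4-fold, 98.0% at 8-fold and 0.641% where nothing was changed. With a coefficient of variation of 0.1 simulated and allowed for, over 505 genes, it was 50% at 1.5-fold, 69.4% at 2-fold, 88% at 4-fold, 100% at 8-fold and 1.94% where nothing was changed. In both runs the test allowed for the spread with which the counts were drawn. In the libraries themselves the exact binomial test called 55.8% of 504 genes, and edgeR gave a coefficient of variation of 0.426. How the test performs at that spread was not tested. The shares are over genes of all levels and were not worked out at the levels of the 4 genes. Sequences are from RefSeq and GENCODE M21. Tables and plots were made in Python 3.11.15 (pandas 2.3.3, numpy 2.4.6, matplotlib 3.10.9).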

Additional observations from a re-analysis of the deposited data

How the results depend on the processing

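The directions of all 4 library differences and the order of the 4 levels held under every alternative that bears on them. The Mir329 difference passed the exact binomial test with DESeq2 size factors (-0.16) and with the minimum of 100 counts (-0.24). When the exact test allowed for a coefficient of variation of 0.1, Mir485 (0.43) no longer passed, 150 genes in all and 16 cluster genes were called, against 281 and 32. With the value estimated by edgeR, added after seeing the data, Mir134 (-0.63), Mir381 (0.88) and Mir485 (0.43) did not pass, and 3 genes in all and 0 cluster genes were called, since this spread was estimated from the same differences. By total counts 277 of 504 genes were called and by DESeq2 size factors 274 of 504. With no count minimum 275 of 778 were called, with the minimum of 100 counts 252 of 313 and with either-strand counts 257 of 479. The number of genes tested changed with the setting, so the share called was less steady than the number.

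With either-strand counts, which have smaller totals, the level of Mir329 was 275 CPM and its share of the cluster 0.398%. Per base of hairpin, the mean ratio of Mir485 over Mir329 was 12.4 against 9.36, and that of Mir134 over Mir329 2.33 against 1.70. Without the cluster genes that share 20 bases, which leaves fewer counts, the shares were 1.03% for Mir134, 0.598% for Mir329, 2.05% for Mir381, 5.52% for Mir485 and 9.20% for all 4. Apart from each library alone, which by construction lies within 1 SD of the mean of both and says nothing on stability, the other 72 values computed under alternatives kept their call or moved by less than 1 SD (counts of genes by less than 1.5 times). No paired analysis was possible because there is 1 group. With 2 libraries the spread of each gene rests on a single difference.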
